A study of Mus musculus with 6 samples.

Results

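Nuclear receptors are transcription factors that many small lipophilic molecules switch on, and coregulators are the proteins that receptors recruit to raise or lower transcription. The genes described here are 38 members of these classes, 27 receptors and 11 coregulators, taken by gene symbol from the kidney tables after FPKM (mapped fragments per kilobase of a transcript and relative to the library total) had been summed over the transcripts of each gene. The tables hold 13696 genes, and all 38 symbols were found in them. A gene was tested where it reached at least 1 FPKM in at least 3 libraries. That left 35 members among 11698 tested genes, and Pparg, Nr2f1 and Nr4a2 stayed below that level.

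The libraries were made from total RNA of kidneys of mice aged 24 months. WT libraries (3) carry the label WT for genotype, and fat-1 libraries (3) the label fat-1 knockin. The fat-1 gene comes from a nematode and encodes a desaturase that makes omega-3 from omega-6 fatty acids. The study's stated purpose was to look at the effects of fat-1 in old kidney. Both groups share tissue and age, and the labels used here name no further allele, treatment, sex, diet or collection time, nor the promoter that drives the inserted gene. Nor do they tell whether each library is a different animal, and the p-values below therefore speak only of the spread among these 6 samples. The inserted sequence was not analysed here, and the genotype of each library therefore rests on its label alone.

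Fatty acids and their derivatives bind the peroxisome proliferator-activated receptors (PPARs), which act as heterodimers with a retinoid X receptor (RXR) on the promoters of genes for lipid oxidation. Hepatocyte nuclear factor 4 receptors hold a fatty acid in their pocket and maintain gene expression in the proximal tubule. Coactivators such as the PGC-1 proteins and the p160 family raise transcription at bound receptors, while corepressors such as NCoR1 recruit histone deacetylases.

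Summed FPKM per library lay between 387488 and 431081, and mitochondrially encoded genes took 12.08% to 16.68% of it. Read depth is unknown, since whole reads could not be recovered from the FPKM values. WT replicate 1 and fat-1 replicate 3 had the most genes at 1 FPKM or more, 12021 and 11974 against 11280 to 11456 in the other libraries. Markers of kidney cell types were present as labelled, with proximal tubule (S1 and S2 segment) markers summing to 2649 to 3451 FPKM in WT and 2338 to 3515 in fat-1. Several marker sums separated the groups. Endothelial markers (10 of 10 listed, none at 0) summed to 92.9 to 113 FPKM in WT and 184 to 251 in fat-1, and podocyte markers (7 of 7) to 64.9 to 76.8 and 98.3 to 115. Intercalated cell markers (7 of 7) ran the other way, at 166 to 175 FPKM in WT and 117 to 125 in fat-1. So did the sum of distal convoluted tubule markers (5 of 5), at 350 to 512 and 199.9 to 305. Taken gene by gene, 10 endothelial, 4 podocyte and 5 intercalated cell markers were without overlap in the direction of their sum. Of the 5 distal convoluted tubule markers only 1 was, Calb1, at 95.5 to 152 FPKM in WT and 25.3 to 49.2 in fat-1. The part of these cell types in the receptor results below was not tested, and in whole-kidney RNA fewer cells of a type and less RNA per cell cannot be told apart. Macrophage markers (8 of 8) summed to 891 FPKM in WT replicate 1 and to 105 to 222 in the other 5 libraries.

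No member passed the test between genotypes (limma on log2(FPKM + 1), Benjamini-Hochberg adjusted p under 0.05 over all tested genes), where 21 of 11698 genes did (0.18%). Of these 21, 14 were higher and 7 lower in fat-1. The split was 36 and 9 of 45 with each library's total set equal, and 4 and 4 of 8 with median-of-ratios factors. Leaving out WT replicate 3, or likewise fat-1 replicate 1 or 3, left 0 genes past the threshold, at 840, 1018 and 1070 genes with an unadjusted p under 0.05, and leaving out WT replicate 2 or fat-1 replicate 2 left 1. With all 6 libraries, 6 of the 35 members (17.1%) had an unadjusted p under 0.05, beside 9.97% of all tested genes. These were Ppara, Ppard, Hnf4g, Nr1h4, Rara and Nr2c1. All 6 are among the 24 tested receptors, and none of the 11 coregulators reached that level. With only 11 genes, a count of 0 cannot be told from the 9.97% of all tested genes. The number of members with such a p fell to 3 without WT replicate 3 and to 3 without fat-1 replicate 2. Over all 11698 tested genes it fell as well, from 1166 to 840 and 918. Between the groups, 6 members did not overlap with fat-1 higher (8.33% of all tested genes did so) and 4 with fat-1 lower (6.86% of all). The median difference of the 35 members was 0.01 on the log2(FPKM + 1) scale, fat-1 minus WT, against 0.01 over all tested genes. The median size of the difference regardless of sign was 0.21 for members and 0.15 for all genes. By mean FPKM over the 6 libraries, the most abundant members were Hnf4a, Nr1h4, Esrra, Ncor1 and Nr2f6, and the least abundant were Nr0b2, Pparg, Nr2f1 and Nr4a2.

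**Figure D1:**
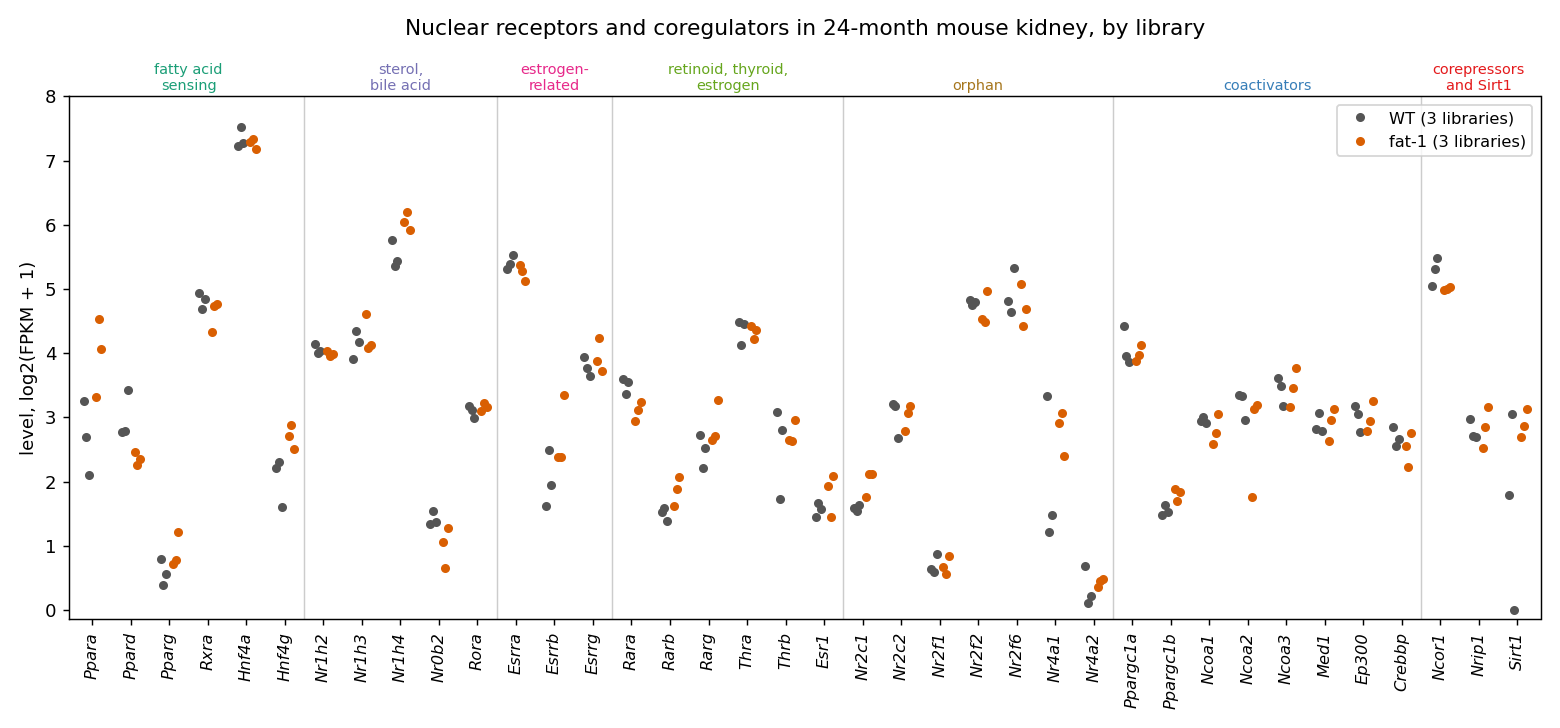
Level of each of the 38 genes in each library, as log2(FPKM + 1) on the vertical axis, with genes in order of role on the horizontal axis; each point is 1 library (grey WT, orange fat-1, 3 each). Hnf4a stands highest in all 6 libraries, the 3 Ppara points of fat-1 lie above those of WT, the Ppard points lie below, and Sirt1 has 1 WT point at 0.

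Among the fatty acid-sensing receptors, the 2 tested PPARs had differences of opposite sign. Ppara, the PPAR isotype known for control of fatty acid oxidation in liver and kidney (ENSMUSG00000022383.13, chromosome 15, 85735776 to 85802819, plus strand, mm10), measured 8.56, 5.46 and 3.27 FPKM in WT replicates 1 to 3 and 9.01, 22.1 and 15.7 FPKM in fat-1 replicates 1 to 3. Every fat-1 library lay above every WT library, but fat-1 replicate 1 exceeded WT replicate 1 by little. The means were 5.77 ± 2.66 FPKM (SD, n = 3) for WT and 15.6 ± 6.55 FPKM (SD, n = 3) for fat-1, a ratio of 2.71. The limma difference was 1.29 (SE 0.39, 95% interval 0.36 to 2.23) on the log2(FPKM + 1) scale, with an adjusted p = 0.314. Ppard, the widely expressed isotype (ENSMUSG00000002250.15, chromosome 17, 28232754 to 28301469, plus strand, mm10), measured 5.80, 5.89 and 9.79 FPKM in WT against 4.49, 3.77 and 4.12 FPKM in fat-1. All 3 fat-1 libraries were below all 3 WT libraries, and WT replicate 3 was the highest. Its limma difference was -0.64 (SE 0.21, 95% interval -1.14 to -0.14), with an adjusted p = 0.36. Without WT replicate 3 the difference of Ppard was -0.42, and the groups still did not overlap.

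Pparg, the isotype that drives fat cell formation, stayed under the testing level, at 0.732, 0.309 and 0.478 FPKM in WT against 0.634, 0.720 and 1.32 FPKM in fat-1, and the groups overlapped. With the filter lifted its difference was 0.32 (SE 0.21, limma adjusted p = 0.773). Of 6 fat cell markers 2 were listed, and they summed to 0 to 5.64 FPKM in WT and 0.293 to 5.91 in fat-1. Rxra, the retinoid X receptor that pairs with PPARs, measured 29.5, 24.7 and 27.8 FPKM in WT against 19.0, 25.5 and 26.2 FPKM in fat-1. The groups overlapped, with fat-1 replicate 1 the lowest, and the limma difference was -0.22 (SE 0.15, adjusted p = 0.767), or -0.07 without that library. To set receptors against their partners, the log2 ratio of FPKM + 1 was also taken within each library. This was done for 6 pairs of members chosen after their values were seen. Ppara over Rxra averaged -2.14 ± 0.55 in WT and -0.63 ± 0.40 in fat-1 (SD, n = 3 each). Ppara over Ppard averaged -0.31 ± 0.93 and 1.62 ± 0.71. Neither ratio overlapped between the groups. Each gave p = 0.1 in a two-sided exact permutation test, the smallest value that 3 against 3 samples allow (0.12 adjusted over the 6 pairs). For Ppara over Ppard that outcome was fixed beforehand, since Ppara was higher and Ppard lower in fat-1 without overlap. As the 6 pairs were picked on these same values, their p-values give no independent evidence. Ppard over Rxra overlapped, at -1.83 ± 0.38 and -2.25 ± 0.33, with an exact permutation p = 0.3.

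Hnf4a (ENSMUSG00000017950.16), a hepatocyte nuclear factor 4 receptor, was the most abundant member, at 149, 183 and 153 FPKM in WT against 156, 161 and 144 FPKM in fat-1, above 96.9% of all listed genes by its mean. The groups overlapped, and the limma difference was -0.07 (SE 0.13, 95% interval -0.36 to 0.23, adjusted p = 0.948). Its paralog Hnf4g measured 3.62, 3.94 and 2.04 FPKM in WT against 5.57, 6.34 and 4.67 FPKM in fat-1. All fat-1 libraries were above all WT libraries, with a limma difference of 0.66 (SE 0.23, adjusted p = 0.377). Within libraries, the log2 ratio of Hnf4g over Hnf4a (each as FPKM + 1) averaged -5.30 ± 0.33 in WT and -4.58 ± 0.11 in fat-1 (SD, n = 3 each), without overlap. This pair, chosen after its values were seen, gave an exact permutation p = 0.1, the smallest possible (0.12 adjusted over the 6 pairs). Hnf4g-201, the transcript that carried 81.7% of the Hnf4g sum, measured 3.01, 3.07 and 1.58 FPKM in WT against 4.50, 5.19 and 4.06 FPKM in fat-1. Hnf4g-202, which starts inside the gene, overlapped between the groups, at 0.462 to 0.870 and 0.619 to 1.15 FPKM.

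Of the 5 tested fatty acid-sensing receptors, 3 had an unadjusted p under 0.05, 2 with fat-1 higher and 1 lower, and their median difference was -0.07 with a median size of 0.64. Of the other 19 tested receptors 3 did, and the median difference was 0.14 with a median size of 0.21. The 8 coactivators had 0 and a median of -0.04, and the corepressors taken with Sirt1 (3 genes) had 0 and a median of 0.05. These medians turned sign with a single library left out, to 0.02 without WT replicate 2 for the fatty acid-sensing receptors, 0.04 without fat-1 replicate 1 and 0.03 without WT replicate 1 for the coactivators, and -0.10 without fat-1 replicate 3 for the corepressors with Sirt1. Over all tested genes 9.97% had an unadjusted p under 0.05, the median was 0.01 and the median size 0.15. The sets are small and were picked with results in view, so these counts and medians describe the members and carry no test of the difference between sets.

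**Figure D2:**
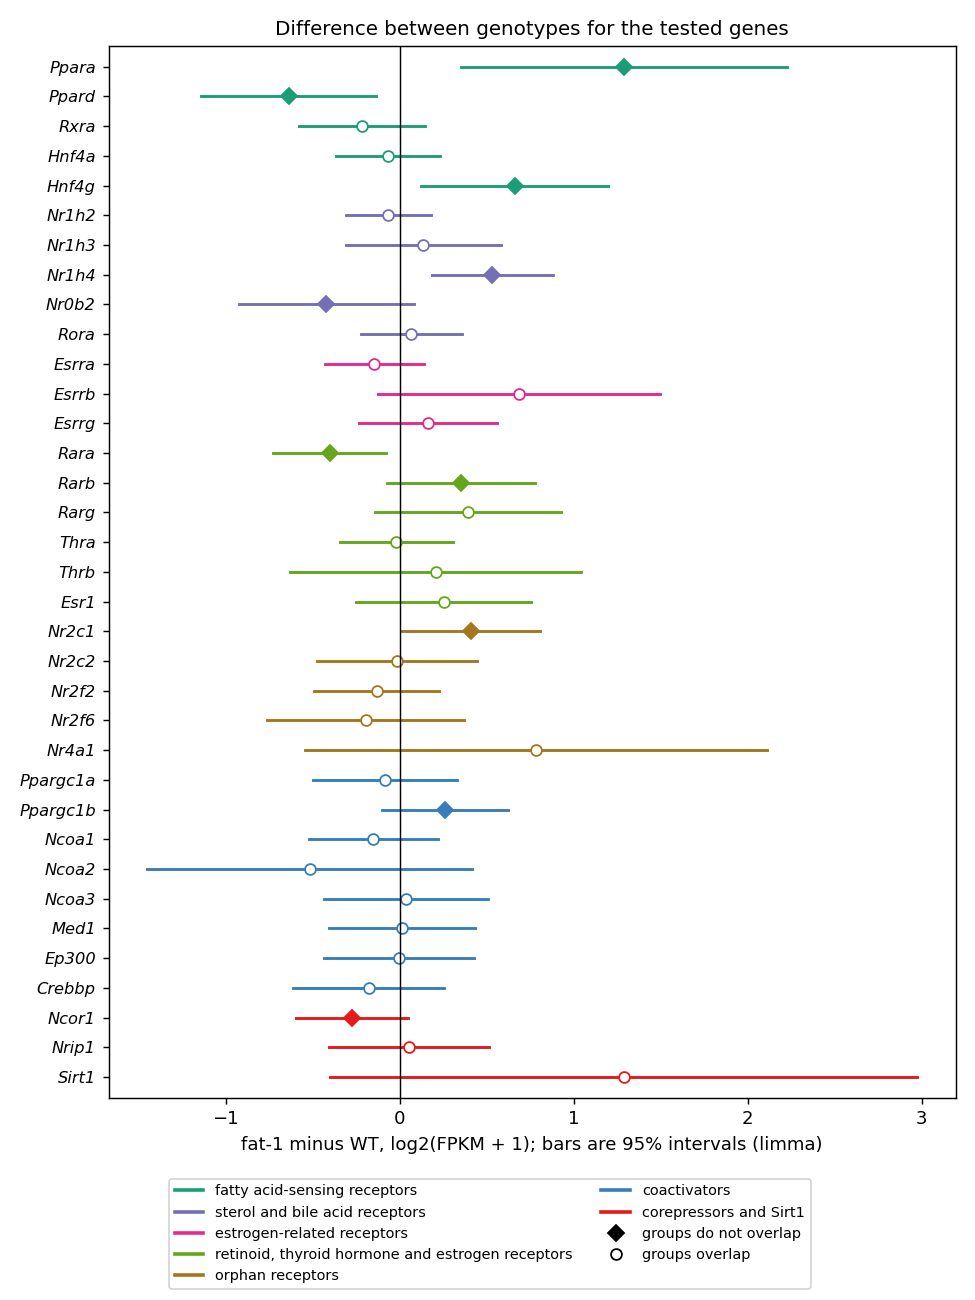
Difference between fat-1 and WT for the 35 tested genes, as log2(FPKM + 1) on the horizontal axis with 95% limma intervals; filled diamonds mark genes whose libraries did not overlap between groups and open circles those that did. Ppara (1.29) and Ppard (-0.64) lie on opposite sides of 0. Of the coactivators, Ppargc1b (0.26) is the only filled diamond and Ncoa2 has the widest interval. Sirt1 has the widest interval of all.

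The Ppara difference was carried mainly by 1 of its 2 listed transcripts. Ppara-201 (2063 bases, 8 exons, starting at 85736131) was listed at 5.02, 0.432 and 0 FPKM in WT and at 5.78, 14.7 and 9.21 FPKM in fat-1, so the groups did not overlap. Ppara-202 (3413 bases, 8 exons, starting upstream at 85735776) measured 3.54, 5.03 and 3.27 FPKM in WT against 3.22, 7.38 and 6.54 FPKM in fat-1, and the groups overlapped. In WT replicates 2 and 3 Ppara-202 thus made up 92.1% and 100% of the gene's FPKM, and in the other 4 libraries between 33.4% and 41.5%. Because FPKM divides by length, reads placed on the shorter transcript weigh more in a plain sum. With transcripts weighted by length, an alternative chosen after these values were seen, Ppara measured 8.40, 6.76 and 4.18 FPKM in WT against 8.58, 20.8 and 15.5 FPKM in fat-1. The groups still did not overlap and the difference was 1.06, and with only the highest transcript of each gene it was 2.33, a change of more than 1.5-fold. Ppard, Pparg and Rxra were each listed with 1 transcript.

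The promoters of Ppara and Ppard, the 2 PPAR genes with differences of opposite sign, are shown to let their sequences be compared. They are RefSeq windows on GRCm38.p6 (the build also called mm10), from 250 bases before to 50 after the start, on the plus strand, at chr15:85735526-85735825 for Ppara and chr17:28232504-28232803 for Ppard. The Ppara window surrounds the start of Ppara-202, whose groups overlapped. Ppara-201, which carried most of the Ppara difference, starts at 85736131, past the end of the window. Capitals mark every GC box, GGGCGG on either strand, a letter pattern recognised by SP-family factors.
Ppara: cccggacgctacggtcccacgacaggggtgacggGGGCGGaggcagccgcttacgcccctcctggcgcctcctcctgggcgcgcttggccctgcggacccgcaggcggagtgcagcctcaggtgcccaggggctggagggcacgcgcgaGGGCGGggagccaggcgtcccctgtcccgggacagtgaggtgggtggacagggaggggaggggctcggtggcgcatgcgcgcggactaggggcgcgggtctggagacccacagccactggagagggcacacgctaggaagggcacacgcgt
Ppard: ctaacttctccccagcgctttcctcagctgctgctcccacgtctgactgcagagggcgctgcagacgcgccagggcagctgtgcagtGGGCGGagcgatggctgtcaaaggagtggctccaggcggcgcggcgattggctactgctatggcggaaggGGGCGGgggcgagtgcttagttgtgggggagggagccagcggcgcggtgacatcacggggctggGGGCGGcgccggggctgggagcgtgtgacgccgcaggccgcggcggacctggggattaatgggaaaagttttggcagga
Ppara held 2 GC boxes and Ppard 3, and neither held AGGTCA, the element of hormone receptors, on either strand. A GC box was present in 11 of 25 member promoters and in 35.7% of all 32851 RefSeq promoters of this length. The window of Rxra held the pattern too, at 4 places. Member promoters had a median GC content of 60.3% and 19 CpG, against 52.7% and 7 for all promoters. These are matches of letters within the window, and neither binding nor its absence was measured. The 25 are members with a RefSeq start within 100 bases of the start of a listed transcript. Those without one include Pparg and Hnf4g.

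Among receptors for sterols and bile acids, Nr1h4 had the lowest p of all members. It encodes the farnesoid X receptor (FXR), which binds bile acids (ENSMUSG00000047638.15, chromosome 10, mm10), and it was the member with the next highest level after Hnf4a. It measured 53.4, 40.1 and 42.5 FPKM in WT against 65.2, 72.3 and 59.7 FPKM in fat-1. All 3 fat-1 libraries were above all 3 WT libraries, and means were 45.3 ± 7.08 and 65.7 ± 6.31 FPKM (SD, n = 3 each), a ratio of 1.45. The limma difference was 0.53 (SE 0.15, 95% interval 0.19 to 0.88), with an adjusted p = 0.257. Within libraries, the log2 ratio of Nr1h4 over Rxra (each as FPKM + 1) averaged 0.70 ± 0.12 in WT and 1.45 ± 0.28 in fat-1. Nr1h4 over Hnf4a averaged -1.82 ± 0.35 and -1.22 ± 0.06 (SD, n = 3 each). Neither ratio overlapped. Both pairs were chosen after their values were seen, and each gave an exact permutation p = 0.1, the smallest possible (0.12 adjusted over the 6 pairs). Its main transcript Nr1h4-201 measured 30.1, 26.3 and 32.4 FPKM in WT against 42.2, 52.1 and 43.8 FPKM in fat-1, without overlap. Nr1h4-203, which starts upstream at 89533585 on the minus strand, overlapped, at 4.67 to 19.7 and 14.4 to 20.5 FPKM. Nr1h4-202 overlapped and was lower on average in fat-1, at 3.54 to 5.39 and 1.52 to 3.69 FPKM.

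**Figure D3:**
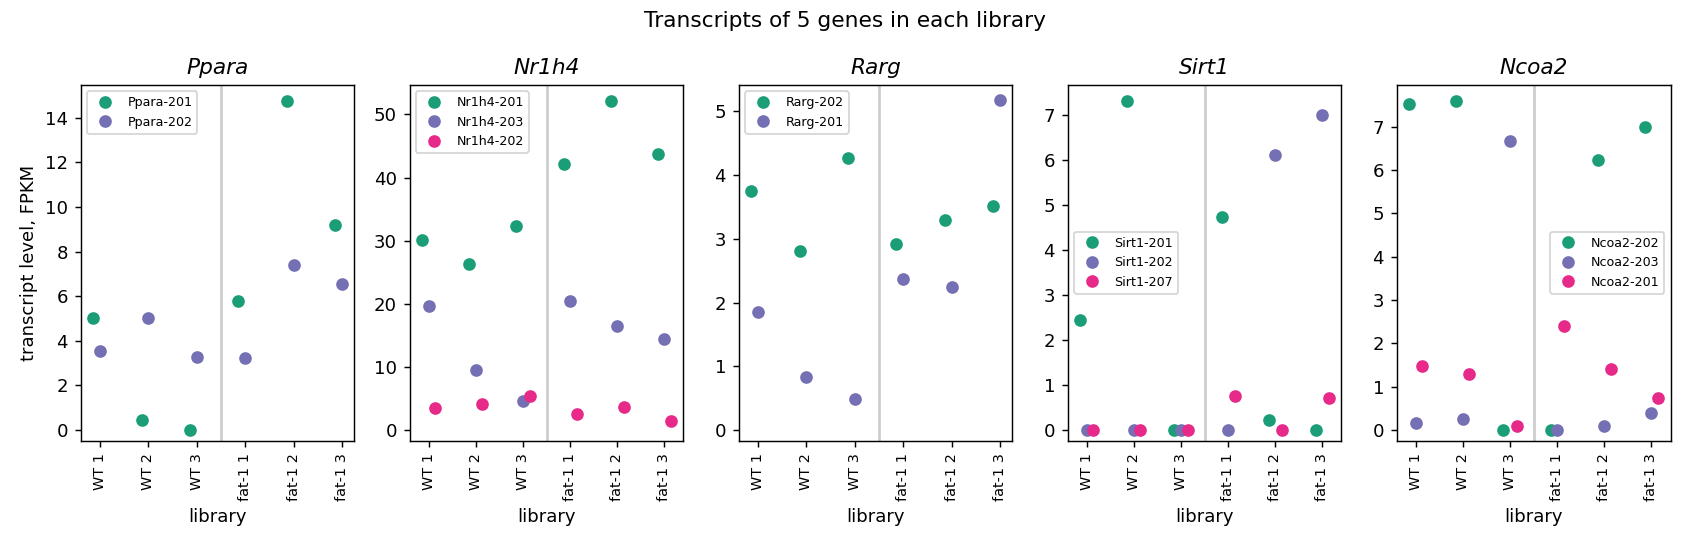
FPKM of each transcript of 5 genes in each library (vertical axes, linear, 1 panel a gene; the grey line parts WT from fat-1, and points of a library are set apart sideways). Ppara-201 and Nr1h4-201 are higher in all 3 fat-1 libraries, while the transcripts of Sirt1 and Ncoa2 take turns at 0.

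The Nr1h4 and Hnf4a promoters are printed because they were the only 2 of the 25 member windows with a match to the HNF1 site. HNF1 factors are homeodomain regulators of the proximal tubule. The windows are RefSeq's on GRCm38.p6, chr10:89506609-89506908 on the minus strand and chr2:163546905-163547204 on the plus strand, both written 5′ to 3′ along the gene. Capitals mark matches to GTTAATNATTAAC with at most 2 mismatches on either strand, and in Nr1h4 also the complement of AGGTCA further upstream.
Nr1h4: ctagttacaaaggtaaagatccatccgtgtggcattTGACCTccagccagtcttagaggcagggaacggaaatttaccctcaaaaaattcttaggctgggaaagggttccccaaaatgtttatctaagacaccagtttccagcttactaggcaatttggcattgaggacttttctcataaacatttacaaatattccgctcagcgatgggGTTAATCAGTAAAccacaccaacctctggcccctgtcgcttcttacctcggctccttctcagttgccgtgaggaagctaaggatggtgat
Hnf4a: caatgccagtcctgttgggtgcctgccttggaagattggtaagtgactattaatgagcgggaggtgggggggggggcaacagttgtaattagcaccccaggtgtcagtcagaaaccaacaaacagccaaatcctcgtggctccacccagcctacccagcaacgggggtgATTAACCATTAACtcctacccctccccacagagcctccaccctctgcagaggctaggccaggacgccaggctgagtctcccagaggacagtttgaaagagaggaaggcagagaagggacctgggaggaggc
The HNF1 match began at position -40 from the start in Nr1h4 and at -81 in Hnf4a, and 1.36% of all 32851 promoters held such a match. AGGTCA occurred in 2 of 25 member promoters, Nr1h4 and Thrb, and in 16.3% of all. A direct repeat of AGGTCA spaced by 1 base (DR1, the PPAR and RXR arrangement, at most 2 mismatches) occurred in the same 2, where it overlaps the AGGTCA match, and in 3.86% of all. The inverted repeat spaced by 1 base (IR1, the FXR and RXR arrangement, at most 2 mismatches) and the longer TCAAGGTCA of estrogen-related receptors occurred in 0 of 25, and in 1.14% and 0.423% of all. Of the other patterns searched, CACGTG was found in 3 of 25 (Nr0b2, Rara and Sirt1) and in 7.15% of all, TATAAA in 2 of 25 and 13.6% of all, and TGACG in 7 of 25 and 20.8% of all.

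Nr0b2 encodes the small heterodimer partner, a receptor without a DNA-binding domain that FXR induces in liver. It was low, at 1.53, 1.90 and 1.58 FPKM in WT against 1.08, 0.567 and 1.41 FPKM in fat-1. All fat-1 libraries were below all WT libraries, opposite in direction to Nr1h4, with a limma difference of -0.42 (SE 0.21, adjusted p = 0.613) that was -0.25 without fat-1 replicate 2. The oxysterol (liver X) receptors Nr1h2 and Nr1h3 overlapped between the groups. Nr1h2 was steady at 14.4 to 16.6 FPKM over the 6 libraries (difference -0.07, SE 0.10), while Nr1h3 ran from 14.1 to 23.5 FPKM with fat-1 replicate 1 the highest (difference 0.14, SE 0.19). Of the 8 listed Nr1h2 transcripts, Nr1h2-202 and Nr1h2-212 did not overlap and were lower in fat-1, at 3.91 to 4.22 against 4.32 to 5.52 FPKM and 1.37 to 1.80 against 1.92 to 2.39 FPKM. Rora, a sterol-binding receptor of the circadian clock loop, measured 6.96 to 8.07 FPKM in WT and 7.57 to 8.32 in fat-1 (difference 0.07, SE 0.12).

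The estrogen-related receptors have no known hormone and drive genes of mitochondrial oxidation together with PGC-1 coactivators. Esrra was the third most abundant member, at 38.6, 40.7 and 45.1 FPKM in WT against 40.7, 37.8 and 33.8 FPKM in fat-1. The groups overlapped (difference -0.15, SE 0.12, adjusted p = 0.821). Esrrg measured 11.5 to 14.4 FPKM in WT and 12.3 to 17.9 in fat-1 (difference 0.16, SE 0.17, adjusted p = 0.865). Esrrb, at 2.06, 4.62 and 2.85 FPKM in WT against 4.2, 4.2 and 9.18 FPKM in fat-1, also overlapped, and its difference of 0.69 (SE 0.34, adjusted p = 0.608) was 0.36 without fat-1 replicate 3. None of the 3 had an unadjusted p under 0.05 (limma).

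The 3 retinoic acid receptors had differences of both signs, 1 negative and 2 positive. Rara measured 11.1, 9.29 and 10.7 FPKM in WT against 6.70, 7.67 and 8.44 FPKM in fat-1. All fat-1 libraries were below all WT libraries, with a limma difference of -0.40 (SE 0.14, 95% interval -0.73 to -0.08, adjusted p = 0.374). Rara-204, the transcript with 67.3% of the Rara sum, also did not overlap, at 6.65 to 7.32 FPKM in WT and 3.66 to 6.17 in fat-1, whereas Rara-202 from an internal start did overlap. Rarb, the isotype that retinoic acid itself induces, measured 1.87, 2.01 and 1.61 FPKM in WT against 2.06, 2.67 and 3.18 FPKM in fat-1. It did not overlap and was higher in fat-1, with a limma difference of 0.35 (SE 0.18, adjusted p = 0.623). Rarg overlapped as a gene, at 3.65 to 5.59 FPKM in WT and 5.29 to 8.69 in fat-1 (difference 0.39, SE 0.22, adjusted p = 0.679, and 0.19 without fat-1 replicate 3). Its 2 transcripts differed: Rarg-201 measured 1.85, 0.839 and 0.496 FPKM in WT against 2.37, 2.25 and 5.18 FPKM in fat-1 without overlap, and Rarg-202 overlapped at 2.81 to 4.27 and 2.92 to 3.51 FPKM. With only the highest transcript of each gene the Rarg difference turned to -0.11.

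The thyroid hormone receptors overlapped between the groups. Thra measured 16.6 to 21.4 FPKM in WT and 17.6 to 20.6 in fat-1 (difference -0.02, SE 0.14), and Thrb 2.31 to 7.44 and 5.17 to 6.78 FPKM (difference 0.21, SE 0.35), where WT replicate 2 was the lowest. The estrogen receptor Esr1 was low, at 1.73 to 2.18 FPKM in WT and 1.72 to 3.23 in fat-1 (difference 0.25, SE 0.21). Adjusted p-values of the 3 lay between 0.823 and 0.992 (limma).

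Of the orphan receptors, Nr2c1, a testicular receptor that binds direct repeats, measured 2.01, 1.91 and 2.11 FPKM in WT against 2.38, 3.33 and 3.33 FPKM in fat-1. The groups did not overlap and the WT libraries were close together. Its limma difference was 0.41 (SE 0.17, adjusted p = 0.496). Its paralog Nr2c2 overlapped, at 5.41 to 8.24 and 5.93 to 8.02 FPKM (difference -0.01, SE 0.19). The COUP transcription factors overlapped as well. Nr2f2, a gene of venous endothelium and stroma, measured 25.8 to 27.5 FPKM in WT and 21.4 to 30.3 in fat-1 (difference -0.13, SE 0.15). Endothelial marker sums did not overlap, and the part of cell types in the Nr2f2 values was not tested. Nr2f6 measured 23.8 to 39.3 and 20.4 to 32.9 FPKM (difference -0.20, SE 0.24), and Nr2f1 0.502 to 0.825 and 0.470 to 0.784 FPKM, under the testing level.

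Nr4a1, an immediate early receptor with no known hormone, varied widely between WT libraries. It measured 9.08, 1.32 and 1.79 FPKM in WT against 6.49, 7.40 and 4.26 FPKM in fat-1, so that WT replicate 1 was the highest of all 6 and the other WT libraries were the lowest. The limma difference was 0.78 (SE 0.56, adjusted p = 0.77), but 1.44 without WT replicate 1 and 0.38 without WT replicate 2. Its relative Nr4a2 followed at a lower level, at 0.612, 0.0747 and 0.158 FPKM in WT and 0.282 to 0.402 in fat-1, with WT replicate 1 again the highest. WT replicate 1 also had the highest level of the 11 tested immediate early genes other than these. As the median over genes of log2(FPKM + 1) relative to each gene's mean over libraries, it stood at 1.14, against -0.77 and -0.56 in the other WT libraries and -0.11 to 0.29 in fat-1. It was the library with the highest macrophage marker sum too, and the part of either in the Nr4a1 values was not tested. Across the immediate early list, 1 of 11 had an unadjusted p under 0.05 and the median difference was 0.31. That median was 0.74 without WT replicate 1, 0.04 without WT replicate 3 and -0.04 without WT replicate 2.

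Among the coactivators, levels overlapped between the groups for 7 of 8. Ppargc1a, the PGC-1 alpha coactivator of PPARs and estrogen-related receptors, measured 20.5, 14.5 and 13.5 FPKM in WT against 13.7, 14.7 and 16.5 FPKM in fat-1, with WT replicate 1 the highest (limma difference -0.08, SE 0.17, 95% interval -0.50 to 0.33, adjusted p = 0.954). Ppargc1b, its paralog, was less abundant, with a WT mean of 1.92 FPKM beside 16.2 FPKM for Ppargc1a. It measured 1.79, 2.09 and 1.88 FPKM in WT against 2.69, 2.23 and 2.57 FPKM in fat-1 without overlap, fat-1 higher, and its limma difference was 0.26 (SE 0.15, adjusted p = 0.688). The p160 coactivators bind receptors through LXXLL motifs. Ncoa1 measured 6.53 to 7.0 FPKM in WT and 5.03 to 7.28 in fat-1 (difference -0.15, SE 0.16), and Ncoa3 8.06 to 11.2 and 7.94 to 12.7 FPKM (difference 0.03, SE 0.20). Ncoa2 was 2.40 FPKM in fat-1 replicate 1 and 6.76 to 9.16 FPKM in the other 5 libraries (difference -0.52, SE 0.39). Without fat-1 replicate 1 the Ncoa2 difference was -0.05. In that library Ncoa2-202 and Ncoa2-203 were both listed at 0, and in WT replicate 3 Ncoa2-202 was at 0 and Ncoa2-203 at 6.67 FPKM, which is above its 0 to 0.399 FPKM in the other 5.

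The Mediator subunit Med1 and the histone acetyltransferases Ep300 and Crebbp bridge receptors to the transcription machinery. Med1 (5.93 to 7.43 FPKM in WT, 5.17 to 7.77 in fat-1) and Ep300 (5.80 to 8.07 and 5.92 to 8.55) had differences of 0.01 (SE 0.18) and -0.00 (SE 0.18). Crebbp measured 4.87 to 6.21 and 3.68 to 5.73 FPKM (difference -0.18, SE 0.18). Crebbp-201, with 92.3% of the sum, was lower in fat-1 without overlap, at 3.28 to 4.51 against 4.59 to 6.21 FPKM. The short Crebbp-207 of 381 bases was higher without overlap, at 0.375 to 0.793 against 0 to 0.275 FPKM.

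Of the corepressors, Ncor1 was the most abundant coregulator, at 32.1, 38.8 and 43.9 FPKM in WT against 30.8, 31.1 and 31.7 FPKM in fat-1. The fat-1 libraries were close together and all below WT, with a limma difference of -0.28 (SE 0.14, adjusted p = 0.604). It was -0.17 without WT replicate 3 and -0.13 with the highest transcript only. Ncor1 had 11 listed transcripts, the most of any member. Ncor1-213, with 47.2% of the sum, overlapped. Ncor1-203, with 8.24%, did not, at 2.85 to 3.75 FPKM in WT and 2.27 to 2.84 in fat-1. Ncor1-212 was at 9.91 FPKM in WT replicate 3 and at 2.10 to 3.70 FPKM elsewhere. With transcripts weighted by length, Ncor1 measured 34.4, 38.8 and 37.9 FPKM in WT against 30.8, 32.2 and 34.2 FPKM in fat-1. Nrip1, also called RIP140, a corepressor of oxidative genes, measured 5.47 to 6.82 FPKM in WT and 4.76 to 7.90 in fat-1 (difference 0.05, SE 0.19). Sirt1, a deacetylase of PGC-1 alpha, was listed at 2.45, 7.30 and 0 FPKM in WT and at 5.50, 6.32 and 7.73 FPKM in fat-1. WT replicate 2 lay within the fat-1 range. The Sirt1 difference was 1.29 (SE 0.71, limma adjusted p = 0.657) but 2.01 without WT replicate 2 and 0.48 without WT replicate 3, where all 3 of its transcripts were at 0. Sirt1-201 carried the gene in WT replicates 1 and 2 and in fat-1 replicate 1, and Sirt1-202 in fat-1 replicates 2 and 3, so with only the highest transcript the difference turned to -0.68. Over all members, 26 had several listed transcripts, 82 in total, of which 18 were at 0 in some library, 5 did not overlap with fat-1 higher and 5 with fat-1 lower. Over the 20649 listed transcripts of all genes that had several, 6.06% did so with fat-1 higher and 5.17% with fat-1 lower.

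Genes that the receptors are known to control were read from lists, which were chosen with earlier results of these data known and so give no independent evidence of a direction. The genes on the PPAR target list were higher in fat-1 as a group. Each of the 25 tested lay above 0, and their median was 1.07, beside 0.01 over all tested genes. Of the 25, 23 were higher without overlap, beside 8.33% of all tested genes. An unadjusted p under 0.05 (limma) was reached by 22, beside 9.97% of all tested genes, and 2 passed the adjusted threshold. These counts depend on how the lists were drawn. Lpl and Scd1, lower in fat-1 by -1.12 and -1.23, were placed on the liver X receptor list only and are not among the 25. Pdk4, the kinase that shuts off pyruvate dehydrogenase, measured 7.76, 7.19 and 6.91 FPKM in WT against 57.1, 36.7 and 67.5 FPKM in fat-1, and rose by 2.68 on the log2(FPKM + 1) scale (SE 0.22, limma adjusted p = 0.0284). The call on Pdk4 was lost without WT replicate 2 or 3 and likewise without fat-1 replicate 1 or 3, with a difference of 2.5 to 2.93 over the single libraries left out. Cyp4a10, a fatty acid omega-hydroxylase, and Plin2, a lipid droplet coat protein, had differences of 2.08 (SE 0.26) and 1.40 (SE 0.18), each with adjusted p = 0.057. Set beside Ppara itself by library, the order of libraries was not the same, and the relation of the 2 was not tested. In fat-1 replicate 1, Ppara at 9.01 FPKM was close to the 8.56 FPKM of WT replicate 1, while the level of the 25 targets (the median over genes of log2(FPKM + 1) relative to each gene's mean over libraries) was 0.66 there, the highest of all libraries, and -0.75 in WT replicate 1, the lowest. In fat-1 replicate 2, with the highest Ppara, the targets were at 0.60, and in fat-1 replicate 3, with Ppara at 15.7 FPKM, at 0.26. In WT replicates 2 and 3, with Ppara at 5.46 and 3.27 FPKM, they were at -0.28 and -0.49.

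**Figure D4:**
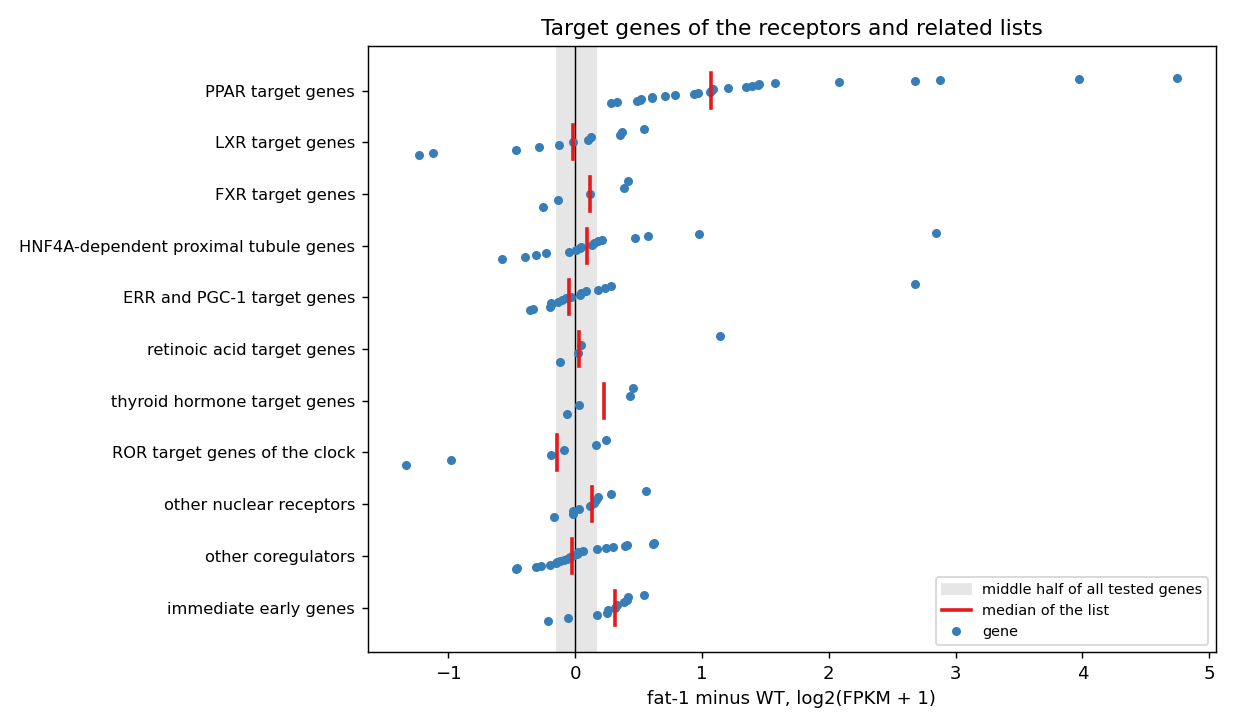
Differences between fat-1 and WT, log2(FPKM + 1), for the tested genes of each list (1 point a gene, spread vertically only to separate points; red lines are list medians and the grey band spans the 25% and 75% quantiles of all tested genes, -0.14 and 0.17). The PPAR target genes all lie above 0, with a median of 1.07, while the medians of the other lists lie between -0.14 and 0.31.

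The FXR target list had 5 tested genes, of which 2 did not overlap and had an unadjusted p under 0.05, both higher in fat-1, at a median difference of 0.12. These were Slc51b, a subunit of the basolateral bile acid exporter, at 40.4, 55.0 and 54.9 FPKM in WT against 75.4, 63.9 and 61.4 FPKM in fat-1 (difference 0.42, SE 0.16, limma adjusted p = 0.452), and Abcc2, an apical organic anion pump (difference 0.38, SE 0.15, adjusted p = 0.463). Fetub had a difference of -0.26 (SE 0.22, adjusted p = 0.83). Of 11 liver X receptor targets, 5 had a positive and 6 a negative difference, 2 had an unadjusted p under 0.05, both lower in fat-1, and the median was -0.02. Scd1, the stearoyl-CoA desaturase, had a difference of -1.23 (SE 0.44, adjusted p = 0.421) and overlapped. Srebf1, the lipogenic regulator, had -0.47 (SE 0.17, adjusted p = 0.442) without overlap. Lpl, the lipoprotein lipase, had -1.12 (SE 0.47, adjusted p = 0.502) and overlapped. Without WT replicate 3 the difference of Lpl was -0.73, without WT replicate 1 that of Slc51b was 0.27, and without fat-1 replicate 2 that of Abcc2 was 0.25.

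Of 16 genes that depend on HNF4A in the proximal tubule, 11 had a positive difference, 4 an unadjusted p under 0.05 (all higher in fat-1 without overlap) and 1 passed the adjusted threshold, with a median of 0.09. The median was -0.03 without WT replicate 1 and 0.21 without WT replicate 2. The gene that passed was Pck1, the entry enzyme of gluconeogenesis, which rose by 2.84 on the log2(FPKM + 1) scale (SE 0.20, limma adjusted p = 0.0284). That call was lost without WT replicate 3 or without any single fat-1 library, at differences of 2.67 to 3.03. Of 16 targets of estrogen-related receptors and PGC-1, 7 had a positive difference, the median was -0.05, and the gene that passed was Pdk4, which the PPAR list holds too. Cycs, cytochrome c, had a difference of -0.33 (SE 0.19) with groups overlapping.

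Of 4 tested retinoic acid targets 3 had a positive difference and 1 an unadjusted p under 0.05, at a median of 0.03. This was Cyp26b1, a retinoic acid-degrading enzyme, at 1.72, 3.73 and 0.982 FPKM in WT against 5.53, 4.87 and 6.21 FPKM in fat-1, which did not overlap (difference 1.15, SE 0.32, adjusted p = 0.259). Tgm2, a transglutaminase, overlapped, with a difference of 0.05. The 4 tested thyroid hormone targets had a median of 0.23 and none had an unadjusted p under 0.05 (limma). Among them Thrsp had a difference of 0.46, Dio1 0.43 and Klf9 -0.06. Of the 6 clock genes under ROR control, 2 had an unadjusted p under 0.05, both lower in fat-1 without overlap. Npas2 measured 2.69, 2.92 and 3.89 FPKM in WT against 1.00, 0.494 and 0.489 FPKM in fat-1 (difference -1.33, SE 0.21, adjusted p = 0.0766), and Arntl had a difference of -0.98 (SE 0.20, adjusted p = 0.134). Nr1d1 overlapped (0.16, SE 0.23). The median of the 6 was -0.14 (-0.02 without WT replicate 1 and -0.30 without WT replicate 2), and Rora itself overlapped between the groups. Medians of other lists turned sign with a single library left out. The liver X receptor median was 0.18 without WT replicate 1 and 0.15 without fat-1 replicate 1, the FXR median -0.01 without WT replicate 2, the estrogen-related receptor and PGC-1 median 0.03 without WT replicate 3, the retinoic acid median -0.01 without WT replicate 3, and the thyroid hormone median -0.06 without WT replicate 1.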

How the data were processed

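Total RNA libraries of mouse kidney (3 WT, 3 fat-1 knockin, 24 months) were analysed from the authors' deposited tables, which give FPKM per transcript, 1 table a sample. The submitters' processing notes name build mm10, the aligner HISAT2 (2.0.5), the counter featureCounts (1.5.0-p3) and DESeq2 (1.20.0). Which tool computed FPKM is not given in the sources. The deposited tables list 27486 transcripts, and each reaches at least 0.5 FPKM in some library. The division of reads over transcripts and paralogs shapes FPKM, and an exact 0 can be a failed estimate.

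FPKM was summed per gene identifier (13696 genes, 13670 of them in the name table). The 11698 genes that reached 1 FPKM in 3 or more libraries were fitted on log2(FPKM + 1) with limma 3.58.1 in R 4.3.3 (trend and robust estimation, no covariate, no rescaling). P-values were adjusted by Benjamini-Hochberg over these genes, and 0.05 was the threshold. The scale understates changes of low genes. For genes with 1 transcript, FPKM times length fell within 0.05 of a whole multiple of a best step in 19.0% to 24.7% of low values, where even spacing gives 10%, so depth stayed unknown and no counting intervals are given. The fit was tested on simulated data.

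The members, gene lists and tests were chosen with earlier results of these data known. Every member is named. Each sample's value and full statistics are given for members without overlap between groups or with an unadjusted p under 0.05 and for the fatty acid-sensing receptors. From each list, the genes past the adjusted threshold and otherwise up to 3 with the smallest p are named. Some genes that this rule names are not reported here. Transcript lengths came from GENCODE M21 for 99.7% of transcripts, and promoters from RefSeq. Alternatives covered pseudocount, filter, scaling, variance estimation, libraries left out and transcript summing. Joins and plots used Python 3.11.15, pandas 2.3.3 and matplotlib 3.10.9.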

Additional observations from a re-analysis of the deposited data

How the results depend on the processing

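Across 20 alternatives, 1 of them (transcripts weighted by length) chosen after seeing the data, 0 members passed the adjusted threshold, and 22 of the 35 tested members kept their direction in every alternative that tested them (15 in all 20, and 7 in 19, since the filter at 5 FPKM dropped them). Of these 22, 15 moved by over 1.5 times when some single library was left out. No paired analysis was possible because the labels number only WT samples from 1 to 3, and the fat-1 numbers used here are names given in accession order. FPKM without depth, 3 samples a group and reads divided between transcripts limit every value.

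The number of genes past the threshold was 21, and 4 with no filter, 41 with a mean of at least 5 FPKM, 45 with library totals set equal, 32 with that total taken without mitochondrially encoded genes, 8 with median-of-ratios factors, 11 with upper quartiles set equal, 39 with quantile normalization, 3 without a trend, 3 with the highest transcript only, and 0 when WT replicate 1 and fat-1 replicate 3 were both left out. With 1 library left out it ran from 0 to 26, and members with an unadjusted p under 0.05 (limma) from 3 to 7. Over all 11698 tested genes, those with such a p ran from 840 to 1602. With a mean of at least 5 FPKM, which drops Hnf4g and other low members, 2 members were higher without overlap, and median differences were -0.14 for fatty acid-sensing receptors, 0.0086 for estrogen-related receptors and 0.25 for FXR targets. With the highest transcript only, the estrogen-related median was 0.39, and the direction turned for Rarg (-0.11), Ncoa3 (-0.0963), Med1 (-0.0321) and Sirt1 (-0.68). With the same 2 libraries left out, 7 members were lower without overlap, which fewer libraries a group make easier to reach. The share of all tested genes without overlap was not taken at this setting or at the filter of 5 FPKM, so neither count can be set against a background. With those 2 libraries left out, medians were 0.093 for sterol and bile acid receptors, 0.19 for retinoic acid targets and -0.057 for thyroid hormone targets. The direction then turned for Thra (0.0296), Ppargc1a (0.020), Ncoa3 (-0.028), Med1 (-0.14), Nrip1 (-0.0138), Dio1 (-0.39) and Klf9 (0.082), while Nr1d1 was at 0.45. It also turned for Med1 with median-of-ratios factors (-0.0060) and with transcripts weighted by length (-0.0164), for Nr2c2 (0.0028) and Ep300 (0.0136) with library totals set equal, and for Ep300 (0.0057) with that total without mitochondrial genes. The cause of these turns was not tested.

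With 1 library left out, medians ran from -0.12 to 0.023 for fatty acid-sensing receptors, -0.034 to 0.075 for sterol and bile acid receptors, 0.017 to 0.27 for estrogen-related receptors, 0.83 to 1.18 for PPAR targets, -0.0070 to 0.27 for FXR targets, -0.0091 to 0.14 for retinoic acid targets, -0.060 to 0.37 for thyroid hormone targets, 0.019 to 0.14 for other nuclear receptors, -0.087 to 0.056 for other coregulators and -0.096 to 0.094 for orphan receptors. Single genes whose direction turned ran from -0.12 to 0.023 for Hnf4a, -0.034 to 0.23 for Nr1h3, -0.13 to 0.044 for Thra, -0.197 to 0.48 for Thrb, -0.19 to 0.094 for Nr2c2, -0.37 to 0.0072 for Nr2f6, -0.19 to 0.088 for Ppargc1a, -0.12 to 0.19 for Ncoa3, -0.0996 to 0.15 for Med1, -0.13 to 0.099 for Ep300, -0.10 to 0.21 for Nrip1, -0.098 to 0.75 for Dio1, -0.22 to 0.043 for Klf9, -0.040 to 0.41 for Nr1d1 and -0.061 to 0.20 for Tgm2.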

Other observations

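Other nuclear receptors, taken from a list that holds none of the 38 genes, did not separate the groups. Of 10 tested, 7 had a positive difference, none had an unadjusted p under 0.05 (limma) and none was without overlap, at a median of 0.13 on the log2(FPKM + 1) scale. Nr1i2, the pregnane X receptor for foreign compounds, had a difference of 0.28 (SE 0.20), and Nr3c1, the glucocorticoid receptor, -0.17 (SE 0.14).

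Of 25 other coregulators, all tested, 11 had a positive difference, 2 had an unadjusted p under 0.05 and none passed the adjusted threshold, at a median of -0.03. Med14, a core Mediator subunit, measured 12.5, 12.5 and 11.5 FPKM in WT and 6.91, 9.59 and 9.39 FPKM in fat-1, lower without overlap (difference -0.46, SE 0.15, adjusted p = 0.352). Lpin1, a phosphatidate phosphatase that also works with PGC-1 alpha and PPAR alpha, measured 11.9, 13.8 and 13.5 FPKM in WT and 14.9, 17.5 and 20.3 FPKM in fat-1, higher without overlap (difference 0.40, SE 0.14, adjusted p = 0.413). Kat2b, an acetyltransferase, had a difference of -0.27 (SE 0.13, adjusted p = 0.594) and was lower without overlap.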
